A study of Mus musculus with 24 samples.

Results

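The miR-92a hairpin gives 2 mature microRNAs (miRNAs) that the counts table lists, mmu-miR-92a-3p and mmu-miR-92a-1-5p, out of 1221 miRNA names in all. Their members are the 26 entries, of 7129, whose name before the isoform suffix is one of these names, 15 for the 3p arm and 11 for the 5p arm. The pair was chosen by the measured course of its arms over the chase, opposite in direction, so levels, slopes and arm ratios are given below as descriptions with no test. Shares of isoforms within an arm were tested. Each share is divided by the arm's own count, so these tests are not fully separate from the levels that chose the pair. The choice was made with earlier results of these data known.

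The data are small RNA libraries of 3T9, an established mouse fibroblast line grown in serum, so they describe a single line of dividing cells. Cells took up 4-thiouridine (4SU, a uridine analogue that enters new RNA and can be coupled to biotin) at 300 µM for 3 h, and then received 1 mM uridine to dilute the label. Biotinylated RNA was captured on streptavidin beads after 0, 2, 4, 6, 8, 10 and 12 h of this chase in 3 experiments, which gave 21 labelled libraries. The other 3 libraries were single controls: total RNA of untreated cells, total RNA of 4SU-treated cells, and a bead extraction from untreated cells, called the negative extraction here.

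miRNA hairpins are cut by Drosha and Dicer into a duplex, of which one strand is usually kept in an Argonaute protein as the guide while the partner, the passenger strand, is discarded. miR-92a-3p is the usual guide of its hairpin and a member of the oncogenic miR-17~92 cluster, which is induced by Myc and active in dividing cells. 4SU enters RNA made during the pulse, and the captured level of a miRNA over the chase is read relative to the other miRNAs of the same library.

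The mature sequences of both arms and of the related 5p arm are shown because they define what the counts can and cannot separate. They come from RefSeq on GRCm38.p6, written 5′ to 3′ with the seed, bases 2 to 8, in capitals.
mmu-miR-92a-3p: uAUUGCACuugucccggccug
mmu-miR-92a-1-5p: aGGUUGGGauuugucgcaaugcu
mmu-miR-92a-2-5p: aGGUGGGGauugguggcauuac
Identical copies of the 3p arm lie at chr14:115044476-115044496 on the plus strand, in Mir92-1, and at chrX:52741854-52741874 on the minus strand, in Mir92-2. Reads of miR-92a-3p therefore cannot be assigned to a hairpin. The 5p arms can be told apart, since 17 of 22 compared bases are the same. The 5p arm counted here, 23 bases long at chr14:115044437-115044459, belongs to Mir92-1, and the 5p arm of Mir92-2 was not analysed here. Both members hold a similar number of uridines where 4SU can enter, 7 in the 21 bases of miR-92a-3p and 8 in miR-92a-1-5p. Over the 346 tested miRNAs with a matched sequence the median was 6 uridines, with quartiles at 5 and 8.

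The precursors are shown with both mature arms in capitals, since the bases that follow the 3p arm differ between them.
Mir92-1: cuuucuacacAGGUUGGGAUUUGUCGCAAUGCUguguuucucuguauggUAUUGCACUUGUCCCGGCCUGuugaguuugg
Mir92-2: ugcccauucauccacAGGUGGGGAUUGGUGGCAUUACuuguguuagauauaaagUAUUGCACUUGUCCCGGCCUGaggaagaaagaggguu
Mir92-1 spans 80 bases, chr14:115044427-115044506 on the plus strand, and is the last of 6 hairpins of miR-17~92, inside the second exon of the host gene Mir17hg (chr14:115043271-115046727). Mir92-2 spans 91 bases at chrX:52741838-52741928 on the minus strand, in the cluster of miR-106a and miR-363. The base after miR-92a-3p is U in Mir92-1 and A in Mir92-2. A read extended by 1 base can thus match one genomic copy and not the other. Of the miRNAs of that cluster, miR-106a-5p and miR-20b-5p had entries, and both stayed at or below 0.863 CPM (counts per 1000000 miRNA counts of the library) in all labelled libraries.

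The labelled libraries held 1133048 to 7886484 miRNA counts, and the negative extraction 283922. The depth of each experiment's 12 h library was below that of its 0 h library. The table's second header line carries 4 codes: experiment 1 shares one with the negative extraction, experiments 2 and 3 have one each, and both total RNA libraries share another, so experiment and code cannot be told apart. All 9 fibroblast marker miRNAs were present, with a summed level of 163859 to 278828 CPM. Markers of other cell types were low: 6 blood markers summed to 185 to 734 CPM, nearly all miR-486a-5p, and 7 epithelial markers to 201 to 1151 CPM, nearly all miR-205-5p. The blood markers miR-142a-3p and miR-223-3p and the epithelial miR-200a-3p, miR-200b-3p and miR-200c-3p averaged under 1 CPM, whereas miR-486a-5p averaged 428 and miR-205-5p 534 CPM. Of the muscle markers, miR-1a-3p was at 0 and miR-206-3p averaged 9.02 CPM (1.14 to 21.7). In bulk RNA, fewer labelled cells and less labelled RNA per cell cannot be told apart.

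The guide arm, miR-92a-3p, was among the most abundant miRNAs of every labelled library and took a growing share of the reads. In experiment 1 its level was 61997 CPM at 0 h, then 78774, 82625, 82920, 97150, 115748 and, at 12 h, 104782 CPM. In experiment 2 the same hours gave 97844, 123635, 133109, 118289, 126637, 149890 and 158157 CPM. In experiment 3 they gave 79818, 94736, 104166, 116374, 133497, 126130 and 118652 CPM. Experiment 1 was the lowest of the 3 at all hours and experiment 2 the highest at all hours but 8 h, and within each experiment the 0 h library was the lowest. The arm made up 6.20 to 15.8% of all miRNA counts, ranked between 1st and 4th, and was the top miRNA in 6 of the 21 labelled libraries.

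The mean of miR-92a-3p was 79886 ± 17924 CPM at 0 h (SD, n = 3) and 127197 ± 27695 CPM at 12 h (SD, n = 3). The 0 h and 12 h values did not overlap, and how many of all miRNAs share this was not counted. Over all miRNAs, edgeR's quasi-likelihood contrast of 12 h and 0 h called 1.21% of 414 tested (adjusted p under 0.05), and 21.7% with the experiment as a block. Since these levels chose the pair, nothing is read from the lack of overlap or from that share. At 12 h the arm stood at 169, 162 and 149% of the 0 h level in experiments 1, 2 and 3. It rose in 14 of the 18 steps between neighbouring times. These are shares of a library, and the labels name no spike-in, so a higher CPM gives a larger share of the captured miRNAs and not more molecules.

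The passenger arm, miR-92a-1-5p, went the other way, and most of its course lay in the first 4 h. In experiment 1 it was at 555, 290, 139, 106, 116, 106 and 68.0 CPM from 0 to 12 h. In experiment 2 it was at 837, 567, 296, 193, 309, 245 and 169 CPM. In experiment 3 it was at 561, 314, 133, 131, 93.1, 106 and 76.6 CPM. Experiment 2 was again the highest at every hour, and its 8 h library, at 309 CPM, stood above its own 6 h library. The 0 h libraries, with 2527 to 4289 reads of this arm, were the highest of each experiment, and the 12 h libraries, with 192 to 223 reads, were the lowest.

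The mean of miR-92a-1-5p fell from 651 ± 161 CPM at 0 h to 390 ± 153 at 2 h, 189 ± 92.2 at 4 h and 105 ± 56.3 at 12 h (SD, n = 3 each). The 0 h and 12 h values did not overlap, and how many of all miRNAs share this was not counted. Nothing is read from it, since these levels chose the pair. Relative to its own 0 h library the arm was at 52.4, 67.8 and 56.0% after 2 h in experiments 1 to 3, at 25.0, 35.3 and 23.8% after 4 h, and at 12.3, 20.2 and 13.7% after 12 h. By 4 h all 3 experiments were thus at 35.3% of their start or less. The arm went down in 15 of 18 steps; the exceptions were 6 to 8 h in experiments 1 and 2, and 8 to 10 h in experiment 3. Its abundance rank moved from 75th, 68th and 75th at 0 h to 154th, 109th and 148th at 12 h.

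**Figure D1:**
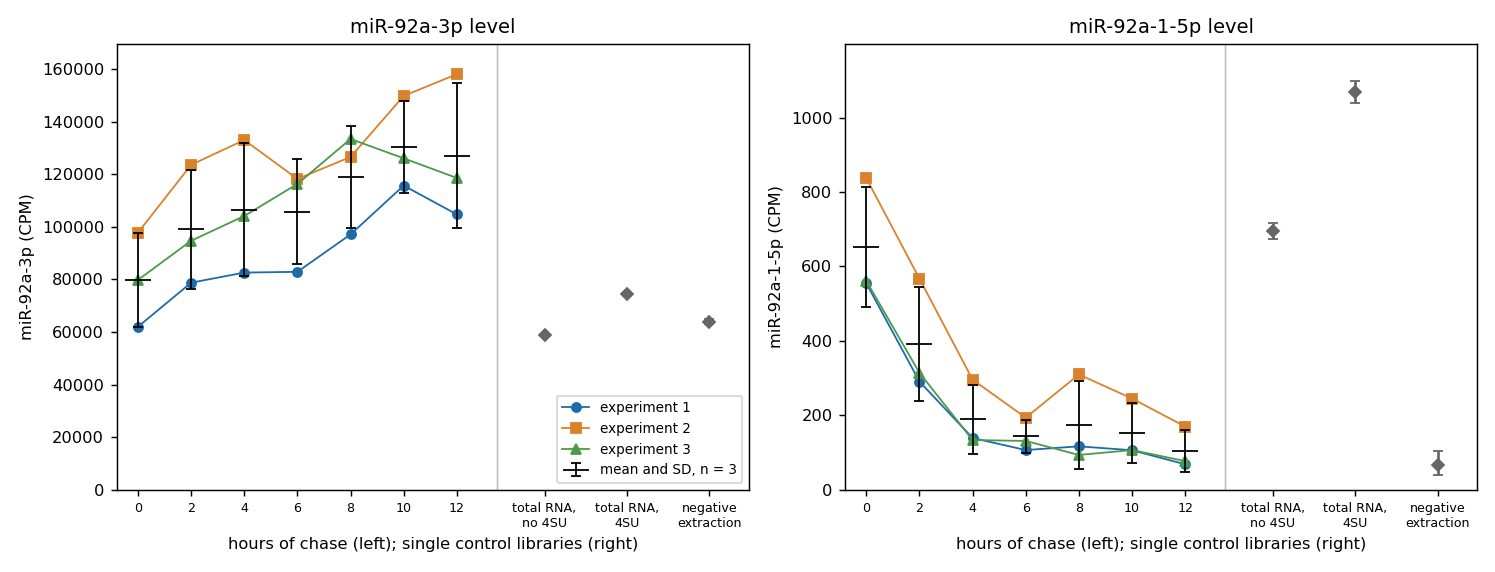
Level in CPM (vertical axis, starting at 0) of miR-92a-3p (left) and miR-92a-1-5p (right) against hours of chase, with a line for each experiment, black bars for the mean and SD of 3 libraries, and the single control libraries at the right with exact 95% intervals for counting error. The 3p arm is lowest at 0 h in each experiment, whereas the 5p arm drops from 555 to 837 CPM at 0 h to 68.0 to 169 CPM at 12 h; the negative extraction is at 66.9 CPM (interval 40.3 to 104.5), with 12 h of experiments 1 and 3 inside that interval and 12 h of experiment 2 above it.

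Fitted slopes put figures on both courses. With TMM scaling, which takes the bulk of the miRNAs as unchanged, miR-92a-3p had a slope of 0.072 log2 per hour (SE 0.0178), the 20th highest of 414 tested miRNAs. Its slopes within experiments 1, 2 and 3 were 0.081, 0.063 and 0.076. miR-92a-1-5p had a slope of -0.18 log2 per hour (SE 0.0340), the 6th lowest of 414, with -0.21, -0.15 and -0.20 within the experiments. The median slope of all tested miRNAs was -0.0037 log2 per hour. The fitted 12 h level was 1.89 times the 0 h level for the 3p arm and 0.191 times for the 5p arm.

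Both courses were steeper early than late. From 0 to 4 h, miR-92a-1-5p changed by -0.46 ± 0.0778 log2 per hour (SD over 3 experiments), and from 4 to 12 h by -0.087 ± 0.0212. Its 12 h mean, 105 CPM, was near the 66.9 CPM of the negative extraction, and the part of background in the later slope was not tested. miR-92a-3p gained 0.10 ± 0.00750 log2 per hour up to 4 h and 0.042 ± 0.0169 from then on.

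The arms were then set against each other within each library, which removes library scaling. Of every 1000 reads of both arms, 8.87, 8.48 and 6.98 came from miR-92a-1-5p at 0 h in experiments 1 to 3. At 2 h the values were 3.67, 4.57 and 3.30, and at 4 h 1.68, 2.22 and 1.28. They went on to 1.28, 1.63 and 1.12 at 6 h, 1.20, 2.44 and 0.697 at 8 h, 0.913, 1.63 and 0.842 at 10 h, and 0.648, 1.07 and 0.645 at 12 h. The 0 h mean was 8.11 ± 0.997 and the 12 h mean 0.788 ± 0.245 per 1000 (SD, n = 3 each), so miR-92a-1-5p made up under 1% of the reads of both members in each labelled library. The 3p reads in this ratio can come from both hairpins, and the 5p reads from Mir92-1 alone.

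The log2 ratio of 5p to 3p (with 1 CPM added to each) was -6.94 ± 0.19 at 0 h and -10.34 ± 0.41 at 12 h (SD, n = 3 each). Its slope was -0.25 log2 per hour (SE 0.0320), with -0.28, -0.21 and -0.27 within experiments 1 to 3. The ratio went down in 16 of 18 steps, the exceptions being 6 to 8 h in experiment 2 (up by 0.58) and 8 to 10 h in experiment 3 (up by 0.27). From 0 to 4 h it changed by -0.57 ± 0.0703 log2 per hour and from 4 to 12 h by -0.13 ± 0.0291 (SD over 3 experiments). The negative extraction had a ratio of -9.88, and the part of background in the later values was not tested.

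**Figure D2:**
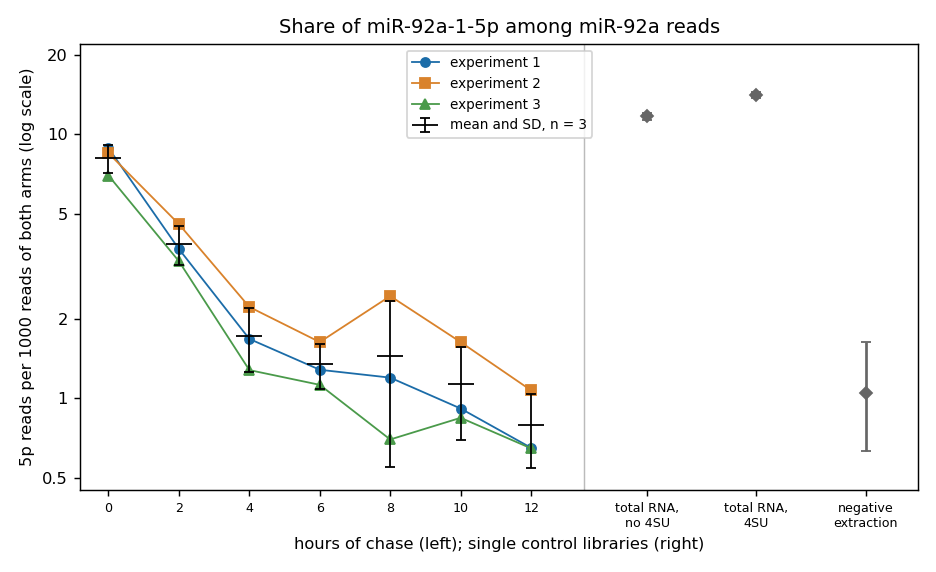
Reads of miR-92a-1-5p per 1000 reads of both arms (vertical log axis) against hours of chase for the 3 experiments, with the mean and SD in black and the control libraries at the right with exact 95% intervals. All 3 experiments start between 6.98 and 8.87 and end between 0.645 and 1.07, while total RNA of untreated and of 4SU-treated cells is at 11.7 and 14.1.

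For comparison, the same ratio was computed for the 105 hairpins with both arms tested, with the arm less abundant in the total RNA libraries as the numerator. The slope was below 0 in 78 of them, with a median of -0.024 log2 per hour. The miR-92a slope was the 2nd lowest. Only Mir301 was lower, at -0.29 (SE 0.0412), and Mir29b-1 was next above, at -0.24 (SE 0.0543). These neighbours started from other balances: the log2 ratio at 0 h was -0.71 for Mir301 and 1.97 for Mir29b-1, against -6.94 for miR-92a. The gaps between these 3 slopes are close to or smaller than their SEs, and their order was not tested.

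**Figure D3:**
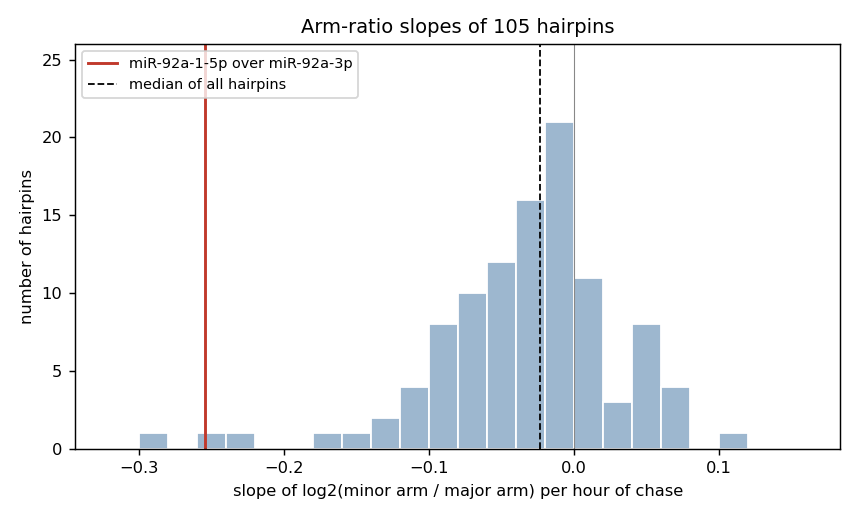
Number of hairpins (vertical axis) by slope of the log2 ratio of minor to major arm per hour of chase (horizontal axis), for 105 hairpins. The red line is the miR-92a hairpin at -0.25 and the dashed line the median of -0.024; 78 of the slopes are below 0.

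The control libraries place the labelled values. miR-92a-3p was at 58755 CPM in total RNA of untreated cells, 74624 in total RNA of 4SU-treated cells and 63880 in the negative extraction. All 21 labelled libraries were above the first, and 20 of 21 above each of the other controls, the exception being 0 h of experiment 1. The 0 h mean was 1.36 times the level in untreated total RNA, 1.07 times that in 4SU-treated total RNA and 1.25 times that in the negative extraction. At 12 h the mean was 2.16, 1.70 and 1.99 times these levels.

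miR-92a-1-5p was at 695 CPM in total RNA of untreated cells and 1068 CPM in total RNA of 4SU-treated cells. All 21 labelled libraries were below the latter and 20 of 21 below the former. In the negative extraction it had 19 reads, 66.9 CPM (exact 95% interval 40.3 to 104.5), so its share there was 0.0963 times that in untreated total RNA. The 0 h mean was 9.73 times the negative extraction. With 1 CPM added to each level, the log2 ratio was 3.26, the 14th highest of 414 miRNAs. At 12 h the mean was 1.56 times the negative extraction. Of the 21 labelled libraries, 3 lay inside the interval of the negative extraction, namely 12 h of experiments 1 and 3 and 8 h of experiment 3, and 18 lay above it.

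Per 1000 reads of both arms, the 5p arm made up 11.7 (exact 95% interval 11.4 to 12.0) in untreated total RNA, 14.1 (13.7 to 14.5) in 4SU-treated total RNA and 1.05 (0.630 to 1.63) in the negative extraction. All labelled libraries from 0 and 2 h were above the interval of the negative extraction, and 12 of 21, all from 4 h or later, lay inside it. How much captured background carries into each labelled library was not tested, since library counts do not give the captured amount. Each control is 1 library, and without molecular identifiers the intervals reflect counting error alone.

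The arms differed in their isoform make-up. The table splits each miRNA into its canonical sequence, trimmed forms, 3′ extensions that match the genome (templated) and 3′ additions that do not (non-templated), the last also by added base, with a class named mixed. The labels do not define these classes. For miR-92a-3p the canonical sequence was a minority, 2.43 to 3.90% of its reads (median 2.98%). Templated 3′ extensions took 40.3 to 55.7% and mixed additions 39.7 to 54.8%. That pooled mixed share, 46.2%, was the 8th highest of 414 miRNAs, whose median was 1.47%. Since the next genomic base differs between Mir92-1 and Mir92-2, the split between templated and non-templated classes can depend on the copy used, which was not tested.

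miR-92a-1-5p was the opposite case: 89.2 to 99.0% of its reads were canonical, and its pooled share of 97.7% was the 3rd highest of 414, with a median of 36.6%. Only 25 of 21290 pooled reads had a non-templated 3′ addition, all by U, and 0 were mixed, which allows a share of up to 0.0141%. Reads with bases added at the 5′ end, which would move the seed, were rare in both arms. For miR-92a-1-5p 13 of 21290 had a templated and 3 a non-templated 5′ addition, and for miR-92a-3p 2 and 95 of 7856072. Whether the trimmed forms include reads shortened at the 5′ end is not stated.

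The shares were tested along the chase with edgeR's quasi-likelihood test, with the miRNA's own count as offset. Of the 11 isoform entries of both arms that had enough reads, 6 passed an adjusted p of 0.05, 4 toward higher and 2 toward lower shares. Over all 1378 entries tested, 8.56% passed (5.22% higher, 3.34% lower). With the experiment as a block, 7 of 11 passed, beside 21.4% of all entries. The classes are parts of one whole and overlap, since all non-templated 3′ additions include the mixed ones, so these are not separate findings.

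For miR-92a-3p the templated 3′ extensions fell and the mixed additions rose. Templated extensions made up 51.8, 54.4 and 44.8% of reads at 0 h in experiments 1 to 3, and 42.9, 45.3 and 40.3% at 12 h. The slope of that share was -0.020 log2 per hour (SE 0.00579, adjusted p = 0.0362, and 0.00163 with the block; edgeR quasi-likelihood). Mixed additions went from 43.5, 40.1 and 50.4% at 0 h to 52.7, 49.1 and 54.8% at 12 h, with a slope of 0.019 (SE 0.00597, adjusted p = 0.0485, and 0.00201 with the block; edgeR). Both slopes kept their sign in all 3 experiments, but the 0 h values of experiment 3 lie between the 12 h values of the others. The change in experiment 1 came at the last step: its templated share was 52.7% at 10 h.

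All 3 experiments ended nearer to untreated total RNA in the templated share than they began. Total RNA of untreated cells had 42.1% templated and 53.3% mixed reads, and that of 4SU-treated cells 36.1 and 59.7%. The negative extraction, at 45.5 and 49.6%, also lay within the labelled range. As levels, the mixed form at 12 h was 205, 198 and 162% of its 0 h level in CPM, the templated form 140, 135 and 134%, so both forms were above their start in all 3 experiments.

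The classes of miR-92a-3p named for an added A, U, C or G were rare and went in different directions. Additions of A rose from 0.149, 0.121 and 0.110% at 0 h to 0.240, 0.139 and 0.180% at 12 h, a slope of 0.051 log2 per hour (SE 0.0154, adjusted p = 0.0417, and 3.68e-05 with the block; edgeR). They stood at 0.287 and 0.360% in untreated and 4SU-treated total RNA. Additions of U, a base that terminal uridylyl transferases can add, fell from 1.27, 1.26 and 0.991% to 1.06, 0.906 and 0.830%. Their slope was -0.029 (SE 0.00898, adjusted p = 0.0485, and 4.44e-06 with the block; edgeR). In total RNA the U additions were at 1.00% without 4SU and 0.632% with it. The genomic base after the arm is U in Mir92-1 and A in Mir92-2. Reads counted as an added U or A may thus match a genomic copy, which was not tested.

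Additions of C had a slope of 0.039 (adjusted p = 0.230, and 0.0225 with the block; edgeR), the entry that the block added. Additions of G (adjusted p = 0.978), the canonical form (0.640) and the trimmed forms (0.336) did not pass, with slopes of -0.0043, 0.011 and 0.012. All non-templated additions together passed (slope 0.018, adjusted p = 0.0468; edgeR), most of them being mixed.

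For miR-92a-1-5p the trimmed forms took a larger share as the arm declined. Their share was 0.769, 1.70 and 1.51% at 0 h in experiments 1 to 3, 4.36, 8.73 and 3.81% at 6 h, and 2.24, 1.56 and 9.79% at 12 h. The slope was 0.14 log2 per hour (SE 0.0409, adjusted p = 0.0303, and 0.00286 with the block; edgeR). Behind these shares are 3 to 54 trimmed reads a library, and the 12 h share of experiment 2, with 3 of 192 reads, was below its 0 h share. The negative extraction had 3 of 19 reads trimmed, 15.8% (exact 95% interval 3.38 to 39.6%), against 2.18 and 1.65% in the total RNA libraries. How far background enters the labelled shares was not tested. As levels, trimmed reads averaged 8.99 CPM at 0 h and 3.89 CPM at 12 h, against 10.6 CPM in the negative extraction. At 12 h they were at 35.7, 18.6 and 88.7% of their 0 h level in experiments 1 to 3, and canonical reads at 12.1, 20.3 and 12.4%. The canonical share of this arm did not pass (slope -0.0038, adjusted p = 0.501; edgeR).

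Without the block, the calls within the arms changed when single libraries were removed. When 1 library at a time was left out, 0 to 5 of the 11 entries passed without the block, and 13 of the 21 removals left fewer than 4: 0, 2, 4 and 12 h of experiment 1, all but 6 h of experiment 2, and 8, 10 and 12 h of experiment 3. Without 0 h of experiment 2 or 12 h of experiment 3, 0 passed. The slopes themselves moved less: each entry that had passed kept its sign in all 29 alternatives. That of the trimmed share of miR-92a-1-5p stayed at 0.119 to 0.160 log2 per hour over the 21 removals. Removals were not run with the block, so dependence on single libraries was not checked there.

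**Figure D4:**
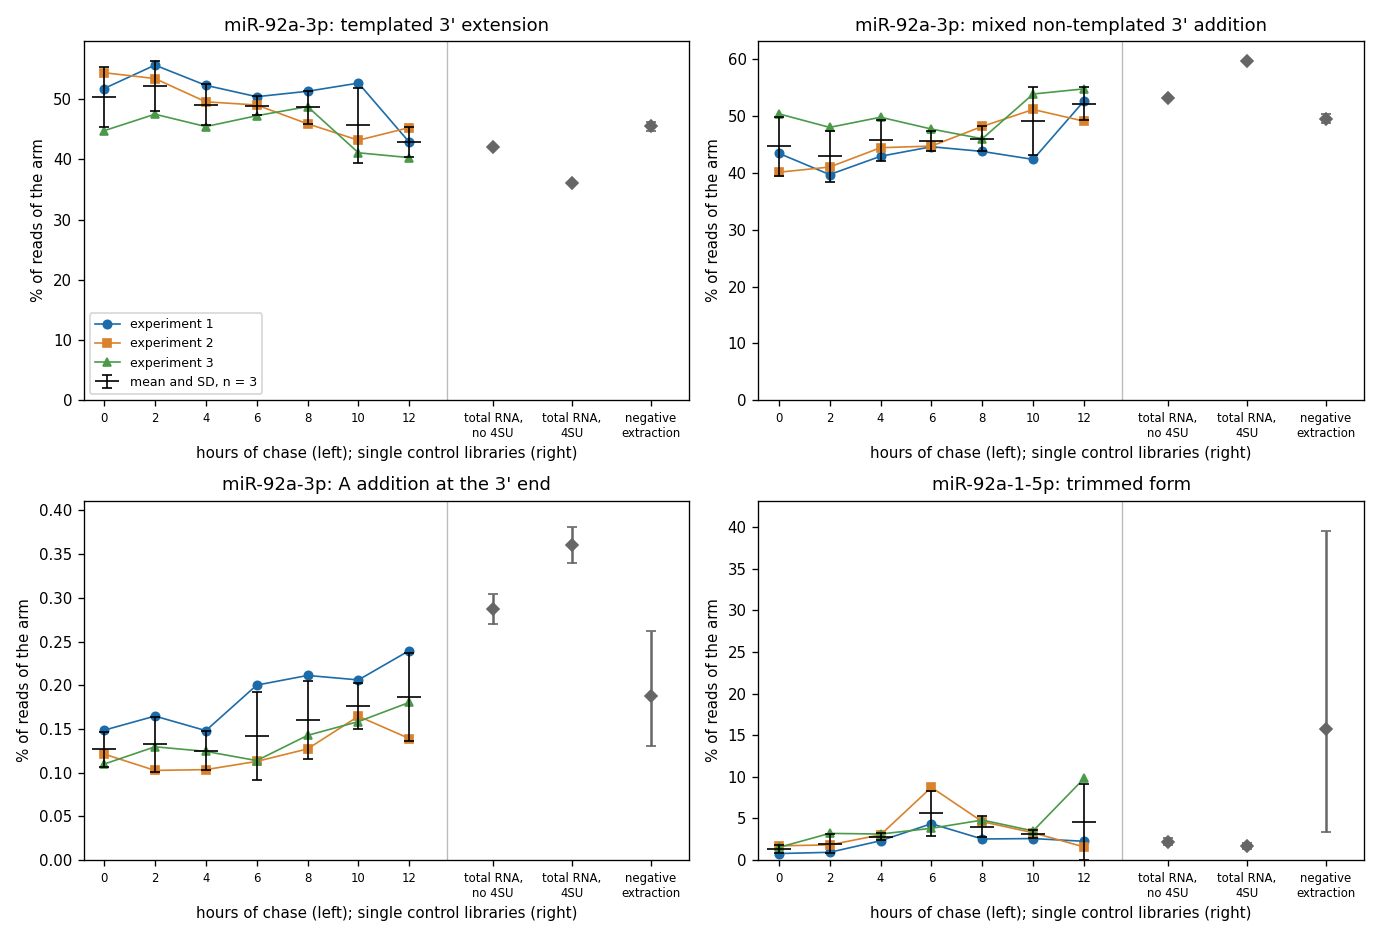
Share of reads within an arm, in percent (vertical axes start at 0), against hours of chase: templated 3′ extensions, mixed additions and A additions of miR-92a-3p, and trimmed forms of miR-92a-1-5p, with lines for the 3 experiments, the mean and SD in black, and controls at the right with exact 95% intervals. Templated reads end at 40.3 to 45.3% and mixed reads at 49.1 to 54.8% at 12 h, and the trimmed share of the 5p arm spreads from 1.56 to 9.79% at 12 h.

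Most of the other miRNAs of miR-17~92 did not pass the test without the block. Of the 8 others of miR-17~92 that were tested, 7 had a slope above 0 (median 0.039 log2 per hour), and 2 rose and 0 fell at an adjusted p under 0.05 (edgeR quasi-likelihood). Over all 414 miRNAs 12.3% passed, and 5.07% of the 414 rose. With the block 4 of the 8 rose, beside 31.9% of all miRNAs that passed and 15.2% that rose. The risers without the block were miR-19b-3p (slope 0.12, SE 0.0255, adjusted p = 0.00275) and miR-19a-3p (0.16, SE 0.0486, adjusted p = 0.0336), both far below miR-92a-3p at 0 h, with 24.6 ± 8.38 and 3.23 ± 1.11 CPM (SD, n = 3). At 12 h their means were 46.9 and 5.99 CPM. The negative extraction had 59.9 CPM (17 reads) and 3.52 CPM (1 read) of them, and the part of background in their slopes was not tested. miR-17-3p, miR-20a-3p and miR-18a-3p were the other tested arms of the cluster that were the less abundant of their hairpin in total RNA. Their slopes were -0.0012, 0.012 and 0.051. None of the 3 passed without the block (edgeR adjusted p = 0.979, 0.866 and 0.0897), and miR-18a-3p rose with it (0.938, 0.834 and 0.00419). In the labelled libraries miR-18a-3p was the more abundant arm, with a 0 h mean of 112 CPM against 14.1 for miR-18a-5p. The slope of miR-92a-1-5p was -0.18, and its difference from these slopes was not tested.

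The seed AUUGCAC of miR-92a-3p is shared by 6 mouse miRNAs, which can bind the same targets; the 2 others with enough reads to be tested are shown here for comparison with miR-92a-3p.
mmu-miR-25-3p: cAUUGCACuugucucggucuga
mmu-miR-92b-3p: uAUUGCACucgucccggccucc
They match miR-92a-3p at 18 and 19 of 21 bases. miR-25-3p, from the miR-106b~25 cluster, went from 9100 ± 473 CPM at 0 h to 11160 ± 1322 at 12 h (SD, n = 3), a slope of 0.041 (SE 0.0107, adjusted p = 0.0130; edgeR). miR-92b-3p, from a hairpin of its own, was at 876 ± 652 and 699 ± 181 CPM, a slope of -0.024 (adjusted p = 0.785; edgeR). In the negative extraction miR-25-3p was at 10094 CPM and miR-92b-3p at 1007 CPM, and the part of background in their slopes was not tested. Of their opposite arms, miR-25-5p had a slope of 0.014 (adjusted p = 0.785) and miR-32-3p, the opposite arm of miR-32-5p, one of -0.047 (adjusted p = 0.613; edgeR). Reads shared by near-identical miRNAs of this family may have been divided by the authors' counting in a way that is not stated.

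The miRNAs whose log2 level over the 21 labelled libraries was most like that of miR-92a-3p were miR-106b-3p (Pearson r = 0.921), miR-181b-5p (0.881), miR-3061-3p (0.859), miR-5099 (0.857) and miR-99b-3p (0.854). For miR-92a-1-5p they were miR-322-3p (0.943), miR-671-3p (0.854), miR-125b-1-3p (0.847), miR-221-5p (0.841) and miR-181a-1-3p (0.824). These are descriptions over libraries that share experiments and time points. All 5 alike to the 5p arm had slopes below 0, from -0.082 to -0.050 log2 per hour, beside its own -0.18. Between the arms themselves r was -0.205 over all 21 libraries and -0.839, -0.839 and -0.918 within experiments 1, 2 and 3; experiment 2 had the highest level of both arms at all hours but 8 h.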

How the data were processed

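The authors deposited a table of read counts, whole numbers per miRNA isoform class with one column per library. Per the submitters' processing notes, CASAVA 1.8.0 was used. Aligner, annotation and the handling of reads matching several miRNAs remain not given in the sources used here. After 1 duplicate entry was removed, 8 non-overlapping classes were summed per miRNA; entries that repeat others were equal in 25728 of 25728 cells and used once. CPM is counts per 1000000 of that library sum, the depth; in the labelled libraries 3 counts equal at most 2.65 CPM, in the negative extraction 10.6 CPM.

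Levels were fitted with edgeR 4.0.16 (R 4.3.3), quasi-likelihood, TMM factors and filterByExpr by time point, as a slope per hour and as 12 h against 0 h, in 21 labelled libraries, with Benjamini-Hochberg adjustment over 414 miRNAs. Isoform shares used the same test with log(miRNA count + 0.5) as offset, for miRNAs with a mean count of at least 50 and classes with at least 5. Arm ratios used least squares with 1 CPM added. Both fits were tested on simulated data drawn without an effect of the experiment, a setting unlike the paired libraries described below. Shares have exact (Clopper-Pearson) 95% intervals. The experiment number pairs libraries: after subtracting each time point's mean, correlations were 0.311 to 0.738 within an experiment for levels (63 pairs) and 0.131 to 0.460 for isoform shares, and each of the 21 libraries correlated best with its own experiment. The series calls the experiments independent replicates; nothing else says they came from separate cultures, so p-values measure the spread between these libraries.

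Alternatives were library-total, upper-quartile and DESeq2 1.42.0 scaling, no filter, the experiment as a block, DESeq2, limma-voom and limma on log odds (limma 3.58.1), canonical entries alone, other pseudocounts, and leaving out libraries, experiments or time points. Named besides the pair are 4 lists (miR-17~92, the miR-106a and miR-363 cluster, the seed family and its opposite arms), the 5 miRNAs most alike to each arm and the 3 hairpins with the lowest arm-ratio slope. The members and lists were chosen with earlier results of these data known. Sequences were matched by miRNA name in RefSeq tables. miR-92a-2-5p was not analysed here.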

Additional observations from a re-analysis of the deposited data

How the results depend on the processing

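The level slopes and the arm ratio kept their direction under each alternative run. miR-92a-3p had a slope of 0.0528 with library totals, 0.0821 with upper-quartile scaling, 0.0823 with canonical entries alone and 0.0558 without the 0 h libraries (0.0603 to 0.0821 with 1 library or experiment left out), and a 12 h against 0 h difference of 0.67 with library totals, 1.08 with upper-quartile scaling, 0.80 with no filter and 1.03 with canonical entries alone (0.73 to 1.10 with 1 library or experiment left out). Without the 0 h libraries, the slope of miR-92a-1-5p was -0.14 and that of the arm ratio -0.19; with 1 library or experiment left out, they ranged from -0.20 to -0.16 and from -0.28 to -0.24, and the 12 h difference of miR-92a-1-5p from -2.92 to -2.16.

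Over all miRNAs, 51 passed the slope test: 132 with the replicate block, 14 without the 0 h libraries, 21 without the 12 h libraries and 15 to 79 with 1 library or experiment left out. The split was 21 higher and 30 lower, against 10 and 47 with library totals and 39 and 24 with upper-quartile scaling. The 12 h contrast called 5: 90 with the block, 14 with library totals, 8 with upper-quartile scaling, 10 with no filter, 15 with DESeq2 and 0 to 12 with 1 library or experiment left out. For isoform shares 118 entries passed: 295 with the block, 61 without the 12 h libraries and 64 to 127 with 1 library or experiment left out. Of the 11 entries of the pair, 6 passed: 7 with the block, 1 with limma on log odds, 3 without the 0 h libraries, 1 without the 12 h libraries and 0 to 5 with 1 library or experiment left out. The cause of these differences was not tested. Fits with libraries, experiments or time points left out also held fewer libraries. The planned sum of both 5p arms was not run, since no values of miR-92a-2-5p were used here, so the arm ratio sets 3p reads of both hairpins against the 5p arm of Mir92-1 alone. Low counts limit the 5p arm, with 19 reads in the negative extraction.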
